A study of Mus musculus with 71 samples.

Results

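The transcripts described here are 31 probe sets of a mouse brain array whose RNA level differed after sleep loss and that carry no established gene name in the platform annotation. They were taken from 11351 probe sets that carry no gene symbol in the platform annotation (9160) or a single provisional symbol ending in Rik or made of Gm and digits (2191). A probe set was a member when the mean of 12 differences, sleep-deprived minus control group means of log2 values within each strain and time, was at least 0.25 in size and at least 10 of the 12 differences had the same sign. Of the 31 members, 21 have no symbol and 10 a provisional one. After sleep deprivation 13 members were higher and 18 lower. The members were thus chosen by their sleep-deprived minus control differences, which are given as a description and without a test.

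Whole-brain RNA came from male mice 12 to 13 weeks old of 3 inbred strains: DBA/2J, AKR/J and C57BL/6J. Mice were kept awake for 6 h until sacrifice, or were left in the home cage as controls. Sacrifice was at ZT0, ZT6, ZT12 or ZT18, the zeitgeber time in hours after light onset, with darkness from ZT12. RNA of 3 mice was pooled for each array, with 3 arrays in 23 of the 24 groups and 2 in the last (AKR/J, ZT18, sleep-deprived), so that 36 control and 35 sleep-deprived arrays were available. Values are log2 levels per probe set, on which a difference of 1 is a doubling of signal. They serve to compare 1 probe set across arrays, not different probe sets with each other.

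Provisional Rik and Gm names were given to mouse transcripts found by cDNA sequencing or by genome annotation before any function was known. Many are long noncoding RNAs, which can be made from the promoter of a coding gene, act on neighbouring genes, or carry small RNAs that are cut from them. Wakefulness is known to change the RNA of many neuronal genes in the brain, above all genes induced by synaptic activity and genes of protein folding. In whole tissue, fewer cells of a type and less RNA per cell cannot be told apart.

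RefSeq (assembly GRCm38.p6) held 9 of the 10 members with a symbol, 8 as long noncoding RNAs and 1, 1700007K13Rik, as a protein-coding gene. Gm19439 was the tenth. Among the 9 that were found, A330023F24Rik alone spans genes of microRNAs, Mir29b-2 and Mir29c, on the same strand of chromosome 1. MicroRNAs of the miR-29 family bind mRNAs of collagens and of DNA methyltransferases, among others. Their mature sequences are shown because the 3p arms share a seed, the bases 2 to 8 that pair with targets, which is in capitals.
mmu-miR-29b-3p (chr1:195037091-195037113, plus strand): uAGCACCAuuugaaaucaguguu
mmu-miR-29c-3p (chr1:195037600-195037621, plus strand): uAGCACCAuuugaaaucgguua
mmu-miR-29b-2-5p (chr1:195037050-195037074, plus strand): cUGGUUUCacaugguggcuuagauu
mmu-miR-29c-5p (chr1:195037562-195037583, plus strand): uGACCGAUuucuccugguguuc
The seed AGCACCA of both 3p arms is also that of miR-29a-3p, while the 5p arms have other seeds. The array measured the host RNA, and mature microRNAs were not measured.

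Promoter windows, from 250 bases before to 50 after a transcript's start, were at hand for 8 members, with 9 windows in all. The window of A330023F24Rik (chr1:195017149-195017448, plus strand) is shown with 2 motif matches in capitals: a glucocorticoid receptor motif (ACANNNTGT), followed by a heat shock element (here on the other strand).
A330023F24Rik: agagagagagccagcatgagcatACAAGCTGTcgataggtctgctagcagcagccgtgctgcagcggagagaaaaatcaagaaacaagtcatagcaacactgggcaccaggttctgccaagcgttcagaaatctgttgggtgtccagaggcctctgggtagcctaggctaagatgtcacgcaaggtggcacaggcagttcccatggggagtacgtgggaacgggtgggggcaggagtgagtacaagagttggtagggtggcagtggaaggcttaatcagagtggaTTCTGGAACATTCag
The window of Gm2694 (chr8:87472866-87473165, plus strand) holds an E-box (CACGTG), the motif that clock proteins bind, in capitals 24 bases after the start.
Gm2694: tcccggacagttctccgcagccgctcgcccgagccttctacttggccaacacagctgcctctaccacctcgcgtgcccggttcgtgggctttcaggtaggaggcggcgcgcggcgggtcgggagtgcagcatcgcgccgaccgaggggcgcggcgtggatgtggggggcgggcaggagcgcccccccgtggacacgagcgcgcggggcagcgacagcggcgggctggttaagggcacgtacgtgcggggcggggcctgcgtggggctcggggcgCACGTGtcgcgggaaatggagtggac
The window of C030023E24Rik (chrX:61191043-61191342, plus strand) holds a D-box (TTATGNAA), the motif of the Dbp family of clock output factors, in capitals on the other strand.
C030023E24Rik: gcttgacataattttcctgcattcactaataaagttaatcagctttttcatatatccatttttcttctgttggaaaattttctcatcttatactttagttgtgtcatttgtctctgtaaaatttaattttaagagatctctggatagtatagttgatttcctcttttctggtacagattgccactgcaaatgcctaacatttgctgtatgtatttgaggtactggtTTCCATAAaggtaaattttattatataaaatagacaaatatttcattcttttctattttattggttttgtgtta
The start of 4930570G19Rik lies 48 bases from that of Negr1, a neuronal adhesion gene read in the opposite direction. Its window (chr3:156561697-156561996, minus strand) is shown with the 147 bases that it shares with the Negr1 window in capitals.
4930570G19Rik: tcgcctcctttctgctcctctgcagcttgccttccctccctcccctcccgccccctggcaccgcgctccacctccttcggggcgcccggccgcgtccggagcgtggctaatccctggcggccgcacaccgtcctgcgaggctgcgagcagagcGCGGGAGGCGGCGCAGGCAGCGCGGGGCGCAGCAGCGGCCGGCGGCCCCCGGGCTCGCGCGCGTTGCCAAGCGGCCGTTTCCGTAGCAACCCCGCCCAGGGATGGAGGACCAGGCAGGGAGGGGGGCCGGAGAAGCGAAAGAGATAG

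Such matches describe letters and not bound sites. Both strands of all windows were searched. The heat shock element occurred in 1 of 9 member windows and 0.603% of 32851 windows, the E-box in 1 and 7.15%, the D-box in 1 and 3.38%, and the glucocorticoid receptor motif in 2 (A330023F24Rik and Gm12371) and 6.85%. The CRE (TGACGTCA; 1.79% of all windows), AP-1 (TGANTCA; 7.81%), Egr (GCGTGGGCG; 0.612%) and ER stress element (0.119%) motifs were in none of the 9. A second start within 1000 bases on the opposite strand, pointing away, was found for 1 of 8 members (12.5%), 4930570G19Rik, and for 12.3% of 27025 genes with a window.

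Members differed by at most 1.68-fold on average, and 17 of them kept 1 sign in all 12 strain and time pairs. Another 12 members kept it in 11 pairs, and Gm2694 and 1453976_at in 10. All 31 members were past an adjusted p of 0.05 for the mean difference (limma, Benjamini-Hochberg over 45037 probe sets), as were 17.3% of all probe sets, and nothing is read from this because the same differences chose them. The size and sign criteria were met by 0.273% of the uncharacterised probe sets (0.229% without a symbol, 0.456% with a provisional one), 0.956% of the other 33686 and 0.784% of all. The members nearest to the threshold of 0.25 were 1454558_at (-0.252), 1457692_at (-0.253) and 1442905_at (-0.254). Just outside it lay 1440533_at (-0.2497), 1443500_at (-0.249) and 1441972_at (-0.247). 1445342_at (0.26) and 1447223_at (-0.33) were past the size but had only 9 equal signs.

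**Figure D1:**
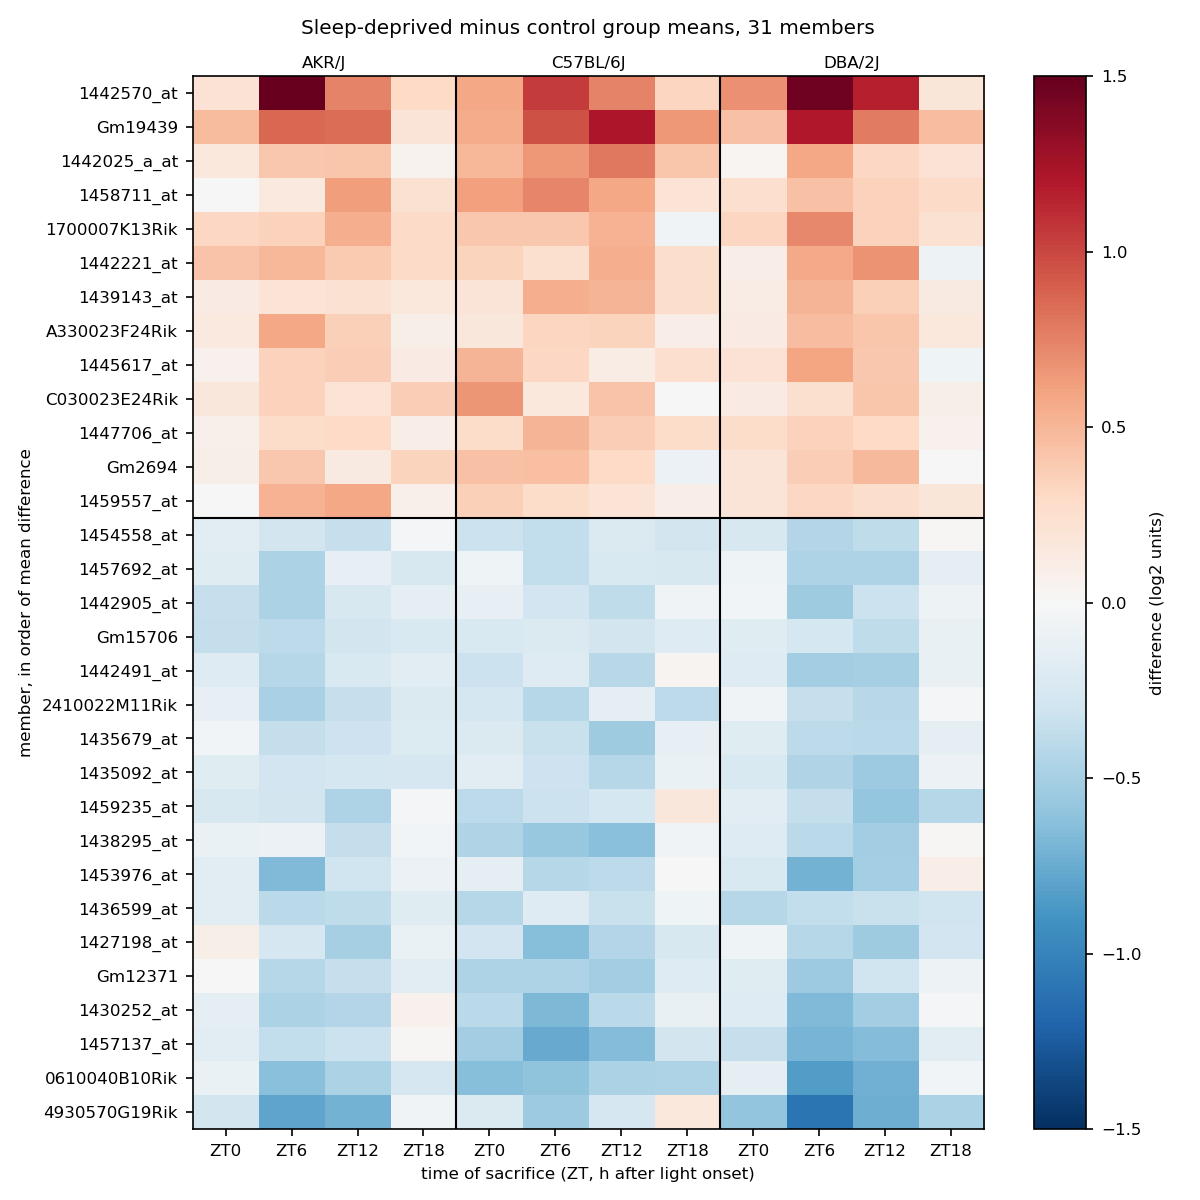
Heat map of the 12 differences (sleep-deprived minus control group means, log2 units, colour) of each member (rows, ordered by mean difference) by strain and time of sacrifice (columns). The strongest colours are at ZT6 and ZT12 in each strain, and most members are pale at ZT18.

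Of the 13 higher members, the largest differences belonged to a probe set with no symbol and to Gm19439. The level of 1442570_at ran from 4.05 to 5.91 on control arrays (median 5.10) and from 5.37 to 6.18 on sleep-deprived arrays (median 5.78). The mean difference was 0.75 ± 0.04 (SE), or 1.68-fold. The ranges overlapped, since controls at ZT18 reached the level of sleep-deprived arrays (5.46 to 5.91), whereas at ZT6 controls lay between 4.05 and 4.79 and sleep-deprived arrays between 5.37 and 5.88, without overlap. For Gm19439 the control arrays ran from 6.15 to 7.92 (median 7.09) and the sleep-deprived from 7.02 to 8.78 (median 7.63). It was higher by 0.72 ± 0.05 (SE), or 1.65-fold, and at ZT12 its control arrays (7.03 to 7.59) lay wholly below the sleep-deprived ones (7.87 to 8.78). The same held for Gm19439 at ZT6 (6.15 to 6.86 against 7.17 to 7.73) and for 1442570_at at ZT12 (4.50 to 5.30 against 5.63 to 5.94). These values are part of the differences that chose the members, and non-overlap at a single time was not counted over all probe sets.

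The next higher members differed less. Probe set 1442025_a_at, whose suffix marks probes shared by transcripts of 1 gene, lay between 6.79 and 7.67 in controls (median 7.20) and between 7.04 and 8.07 after sleep loss (median 7.59), a difference of 0.38 ± 0.03 (SE). For 1458711_at the control range was 5.11 to 5.98 (median 5.53) and the sleep-deprived range 5.43 to 6.55 (median 5.86), which gave 0.37 ± 0.04 (SE). Over all times the ranges of all these members overlapped between conditions. Within a time 1442025_a_at did not overlap at ZT6 (6.79 to 7.29 against 7.48 to 7.84) or ZT12 (7.16 to 7.67 against 7.69 to 8.07). How many of all probe sets were without overlap at a single time was not counted. 1700007K13Rik, also known as Pierce1 and a protein of cilia, ran from 5.42 to 6.27 in controls (median 5.80) and from 5.75 to 6.57 after sleep loss (median 6.17), a difference of 0.37 ± 0.03 (SE). For 1442221_at the ranges were 4.61 to 5.66 (median 5.11) and 4.98 to 5.86 (median 5.53), a difference of 0.36 ± 0.04 (SE). The host of the miR-29 genes, A330023F24Rik, had a smaller difference of 0.27 ± 0.02 (SE), with 0.29 in AKR/J and DBA/2J and 0.23 in C57BL/6J but unequal sizes over the day (given with the time test), with control arrays from 8.22 to 9.03 (median 8.68) and sleep-deprived arrays from 8.70 to 9.16 (median 8.88). Its sleep-deprived arrays thus lay in the upper part of the control range and just above it. The remaining higher members were 1439143_at (0.28), 1445617_at (0.27), C030023E24Rik (0.27), 1447706_at (0.26), Gm2694 (0.26) and 1459557_at (0.26).

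**Figure D2:**
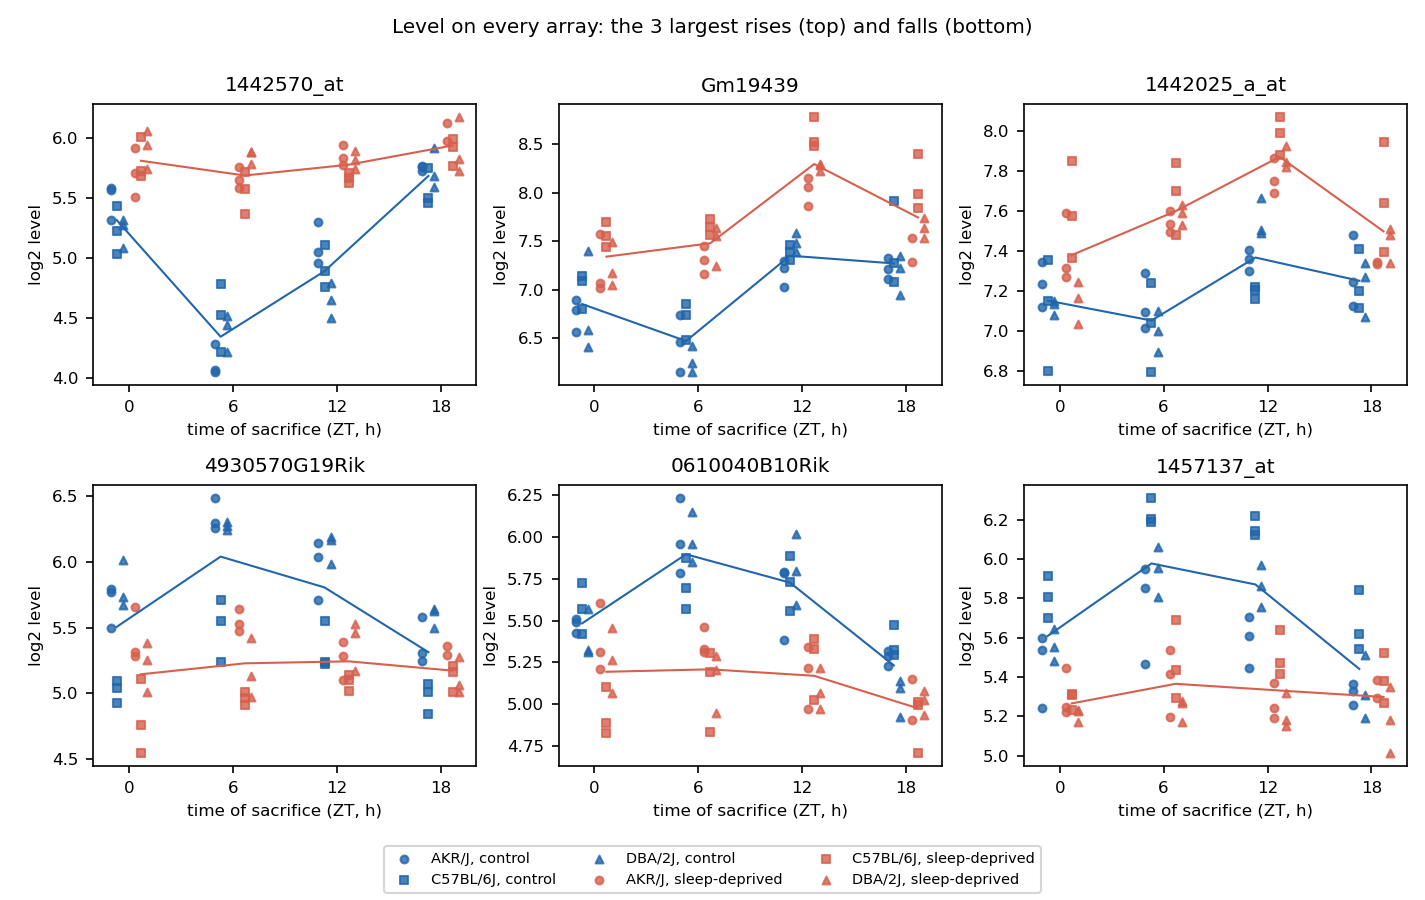
Log2 level on every array of the 3 members with the largest rise and the 3 with the largest fall, against time of sacrifice (ZT, h). Blue points are controls and red points sleep-deprived mice, shapes are strains, and lines join the means over arrays. For 1442570_at the control points fall to between 4.05 and 4.79 at ZT6 while the sleep-deprived points stay at 5.37 or above.

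The lower members were led by a pair of long noncoding RNAs. For 4930570G19Rik, which starts beside Negr1, control arrays ran from 4.84 to 6.49 (median 5.66) and sleep-deprived arrays from 4.54 to 5.65 (median 5.17). It was lower, at a mean difference of -0.46 ± 0.04 (SE), or 1.38-fold. For 0610040B10Rik the ranges were 4.92 to 6.24 (median 5.57) and 4.71 to 5.61 (median 5.15), a difference of -0.45 ± 0.04 (SE). At ZT6 its controls (5.57 to 6.24) and sleep-deprived arrays (4.83 to 5.46) did not overlap, for which the share of all probe sets was not counted. Probe set 1457137_at had controls from 5.19 to 6.31 (median 5.70) and sleep-deprived arrays from 5.01 to 5.69 (median 5.29), a difference of -0.41 ± 0.03 (SE).

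Other falls were between -0.33 and -0.25. For 1430252_at the control arrays ran from 4.72 to 5.88 (median 5.24) and the sleep-deprived from 4.54 to 5.48 (median 4.91), with a difference of -0.33 ± 0.04 (SE). Gm12371, a long noncoding RNA, lay between 4.96 and 5.86 in controls (median 5.42) and between 4.86 and 5.40 after sleep loss (median 5.11), a difference of -0.31 ± 0.03 (SE). For 1427198_at the ranges were 5.59 to 6.72 (median 6.24) and 5.41 to 6.26 (median 5.99), a difference of -0.31 ± 0.04 (SE). In each of these members the highest control arrays stood clear of all sleep-deprived arrays, while the lowest did not. Within a time Gm12371 did not overlap at ZT6 (5.33 to 5.86 in controls, 4.90 to 5.24 after sleep loss). Nor did 1427198_at at ZT12 (6.32 to 6.72 and 5.82 to 6.22). Here too the share of all probe sets was not counted, and the same differences chose the members. The mean difference was -0.30 for 1436599_at, -0.29 for 1453976_at, -0.28 for both 1438295_at and 1459235_at, and -0.27 for 1435092_at, 1435679_at, 2410022M11Rik and 1442491_at. It was -0.26 for Gm15706. Over all 71 arrays no member, and 0 of 45037 probe sets (0%), separated the conditions completely. Within a strain 1442491_at alone did so, in AKR/J, where 0.0511% of probe sets did, and no member did in C57BL/6J or DBA/2J (0.0311% of probe sets in each).

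The differences were larger at ZT6 and ZT12, after hours of light, than at ZT0 and ZT18. Their median size over the members was 0.24 at ZT0, 0.43 at ZT6, 0.40 at ZT12 and 0.15 at ZT18, against 0.05, 0.05, 0.05 and 0.04 over all probe sets. The difference was largest at ZT6 in 20 members and at ZT12 in 11, and smallest at ZT18 in 25. At ZT0 15 members were called (1.71% of all probe sets), at ZT6 30 (10.4%), at ZT12 31 (9.75%) and at ZT18 0 (0.0777%). The uncalled member at ZT6 was C030023E24Rik (0.25 ± 0.09, SE). At ZT18 17 members had an unadjusted p under 0.05 (limma), as had 5.76% of all probe sets. The largest difference at ZT18 was that of Gm19439, 0.44 ± 0.10 (SE, adjusted p = 0.080). By strain 26 members were called in AKR/J (5.85% of all), 30 in C57BL/6J (6.45%) and 29 in DBA/2J (6.9%). These calls repeat the contrast that chose the members, so the counts are not read against the background.

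Change of the response with time (F test of ZT by sleep deprivation) was called for 11 members and 1.4% of probe sets. It rests on the same 12 differences. The smallest p was that of 1442570_at, with differences of 0.49 at ZT0, 1.34 at ZT6, 0.89 at ZT12 and 0.27 at ZT18. A330023F24Rik went from 0.15 at ZT0 through 0.45 and 0.37 to 0.11 at ZT18, and 4930570G19Rik from -0.36 through -0.81 and -0.56 to -0.12. A difference between strains was called for 4930570G19Rik alone, among 0.0222% of probe sets: it was lower, at -0.72 ± 0.06 (SE) in DBA/2J, -0.46 ± 0.06 in AKR/J and -0.21 ± 0.06 in C57BL/6J (adjusted p = 0.024, limma). Without DBA/2J control replicate 1 or sleep-deprived replicate 3 at ZT0 the adjusted p was 0.0536 or 0.0528. The smallest fall was in the strain with the lowest control level. Control means were 5.94 in DBA/2J, 5.84 in AKR/J and 5.21 in C57BL/6J, and sleep-deprived means 5.22, 5.39 and 4.99. In C57BL/6J at ZT18 the difference was 0.15, the opposite sign.

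In undisturbed mice the RNA of every member was called as varying over the day in the main fit. This comparison sets control means against each other, with the spread estimated from all 71 arrays. It is not the contrast that chose the members, although both draw on the same control arrays. Time of day was called for 31 of 31 members (limma F test), against a background of 11.7% of all probe sets. With 1 array left out 29 to 31 members were called, and 30 with control arrays alone in the fit. The range between the highest and the lowest of the 4 control means had a median of 0.40 over the members and 0.10 over all probe sets. The widest range was that of 1442570_at, with control means of 5.32 at ZT0, 4.35 at ZT6, 4.89 at ZT12 and 5.68 at ZT18 (adjusted p = 1.54e-21). For A330023F24Rik the means were 8.75, 8.36, 8.53 and 8.87 (adjusted p = 1.79e-15), with the same low point in the middle of the light. Other members had their high point there. The means of 1453976_at were 5.93, 6.57, 6.11 and 5.76 (adjusted p = 6.73e-13), those of 4930570G19Rik 5.51, 6.04, 5.80 and 5.31 (adjusted p = 4.51e-11), and those of 1430252_at 5.15, 5.68, 5.43 and 4.92 (adjusted p = 2.68e-10). Control means were lowest at ZT6 in 11 members and highest at ZT6 in 15. The other probe sets of the array that met the same size and sign criteria varied over the day in like proportion: 202 of 214 higher and 105 of 108 lower ones were called.

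**Figure D3:**
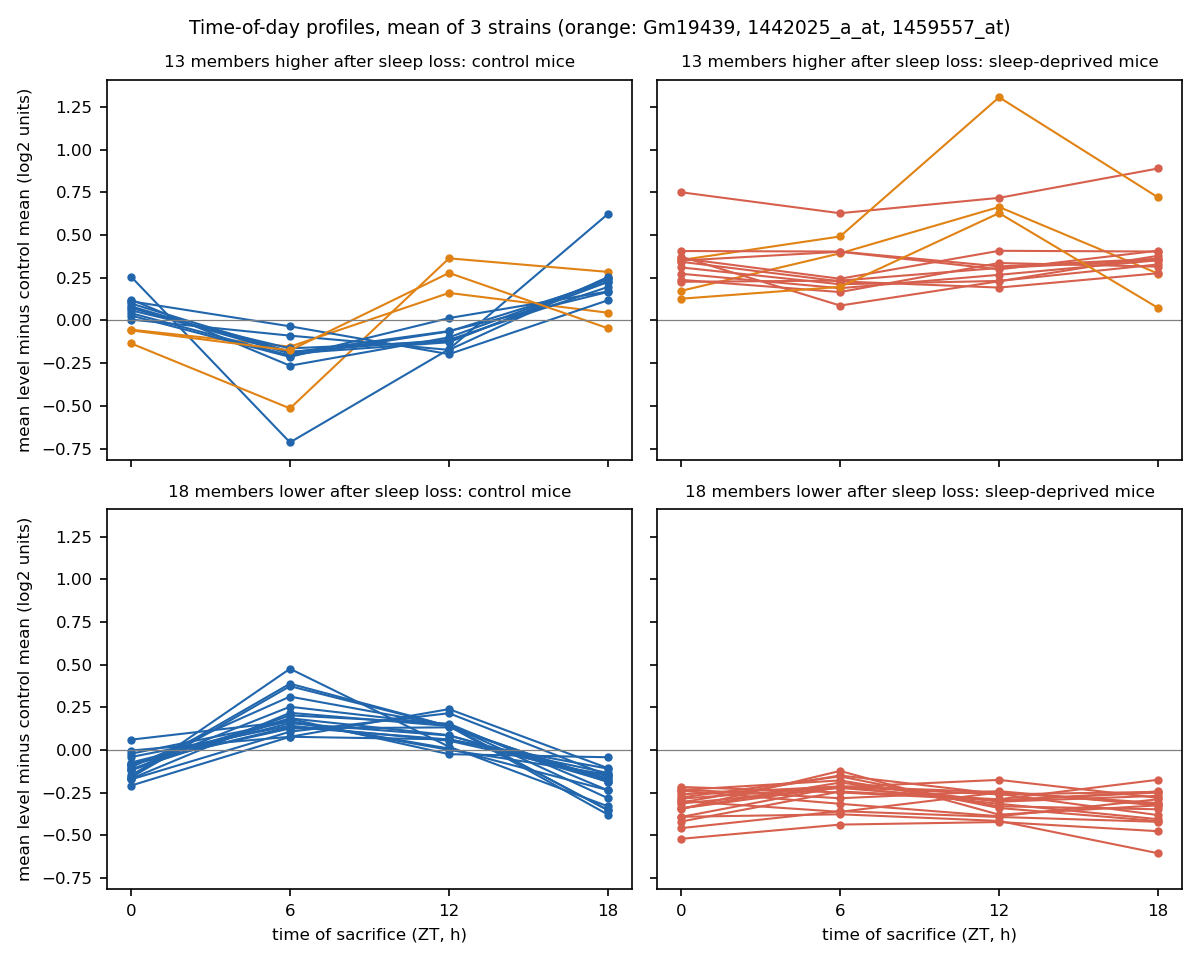
Mean level of each member (mean of 3 strains) minus its mean over the 4 control times, in log2 units, against time of sacrifice (ZT, h), for control mice (left) and sleep-deprived mice (right). Each line is 1 member. In controls 11 members are lowest and 15 highest at ZT6, with a median range of 0.40, while the lines of sleep-deprived mice are flatter, with a median range of 0.16.

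As a single value, the mean of the control levels at ZT18 and ZT0, after hours of darkness, was set against that at ZT6 and ZT12, after hours of light. Dark minus light was called for 28 members: 10 were higher in the dark, against 5.92% of all probe sets, and 18 lower, against 6.14%. Because the control arrays are shared, the values are given side by side with those after sleep loss and no relation is drawn. The 13 members higher after sleep loss had dark minus light values with a median of 0.26, and the 18 lower ones of -0.29. For the other probe sets of the same size and sign the medians were 0.30 and -0.32.

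The largest values were those of the members already named. 1442570_at was higher in the dark by 0.88 ± 0.05 (SE, adjusted p = 9.9e-21) and A330023F24Rik by 0.36 ± 0.03 (adjusted p = 1.1e-15). The values of 1430252_at (-0.53 ± 0.06), 4930570G19Rik (-0.51 ± 0.05), 1453976_at (-0.49 ± 0.05), 0610040B10Rik (-0.46 ± 0.05) and 1457137_at (-0.40 ± 0.04) were below 0, with adjusted p of 1.8e-09 or less. Among the other symbolled members, dark minus light was 0.30 for Gm2694, 0.29 for C030023E24Rik, 0.26 for 1700007K13Rik, -0.20 for 2410022M11Rik, -0.17 for Gm12371 and -0.14 for Gm15706.

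Dark minus light did not pass the test in Gm19439 (0.15 ± 0.07, SE, adjusted p = 0.178), 1442025_a_at (-0.01 ± 0.05, adjusted p = 0.955) and 1459557_at (-0.10 ± 0.08, adjusted p = 0.520). Their control means were highest at ZT12, at the end of the light, although Gm19439 was nearly as high at ZT18, and in AKR/J (7.22 against 7.18) and C57BL/6J (7.43 against 7.38) its ZT18 mean was the higher by less than the spread of arrays. The same held for 1442025_a_at in C57BL/6J (7.24 against 7.20). Gm19439 had control means of 6.85 at ZT0, 6.47 at ZT6, 7.35 at ZT12 and 7.27 at ZT18, those of 1442025_a_at were 7.15, 7.05, 7.37 and 7.25, and those of 1459557_at 5.07, 4.95, 5.41 and 5.08.

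**Figure D4:**
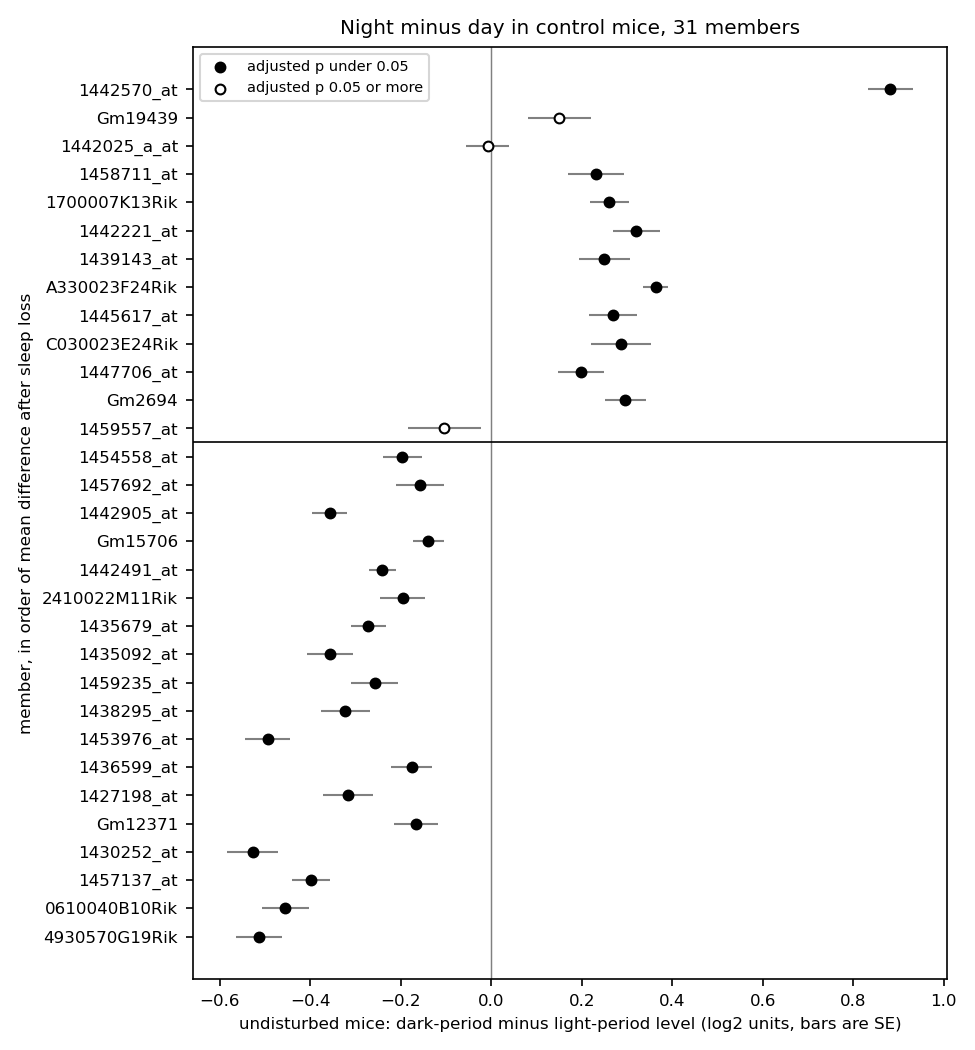
Dark minus light level in control mice (log2 units, x axis) of each member (y axis, in order of the mean difference after sleep loss, the 13 higher above the line). Points are estimates over 36 control arrays and bars their SE, and open points did not pass the test. Open points are Gm19439, 1442025_a_at and 1459557_at.

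In sleep-deprived mice time of day was called for those 3 members, against 1.42% of all probe sets (limma F test), and for no other member. Gm19439 had means of 7.34 at ZT0, 7.48 at ZT6, 8.30 at ZT12 and 7.71 at ZT18 (adjusted p = 6.1e-10). Those of 1442025_a_at were 7.38, 7.60, 7.87 and 7.48 (adjusted p = 4.3e-06), and those of 1459557_at 5.26, 5.33, 5.76 and 5.20 (adjusted p = 0.0059). All 3 had their highest mean over strains at ZT12 with and without sleep loss. Over the members the median range of the 4 means was 0.16 in sleep-deprived mice and 0.40 in controls, and 28 of 31 had the wider range in controls. Over all probe sets the medians were 0.09 and 0.10, and how many had the wider range in controls was not counted. Both ranges come from the arrays whose differences chose the members, so nothing is read from the count. For 1442570_at the sleep-deprived means stayed between 5.69 and 5.95.

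Strain levels in controls were called for 17 of 31 members, while 32.8% of all probe sets were called (limma F test). Other probe sets of the same size and sign were called in like proportion, 114 of 214 higher and 52 of 108 lower ones. The widest was that of 1445617_at, at 6.16 in DBA/2J, 5.42 in AKR/J and 5.14 in C57BL/6J (adjusted p = 3.0e-20). In contrast 1438295_at was highest in C57BL/6J, at 5.66 against 4.75 in AKR/J and 4.86 in DBA/2J (adjusted p = 8.5e-19). Other members were low in C57BL/6J: 4930570G19Rik at 5.21, against 5.84 and 5.94, and 1439143_at at 6.17, against 6.84 and 6.92. For 1457137_at C57BL/6J was highest, at 5.97 against 5.53 in AKR/J and 5.68 in DBA/2J. For 1454558_at AKR/J was highest, at 5.89 against 5.49 in C57BL/6J and 5.69 in DBA/2J. Whether sequence variants under a probe take part in such values was not tested.

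**Figure D5:**
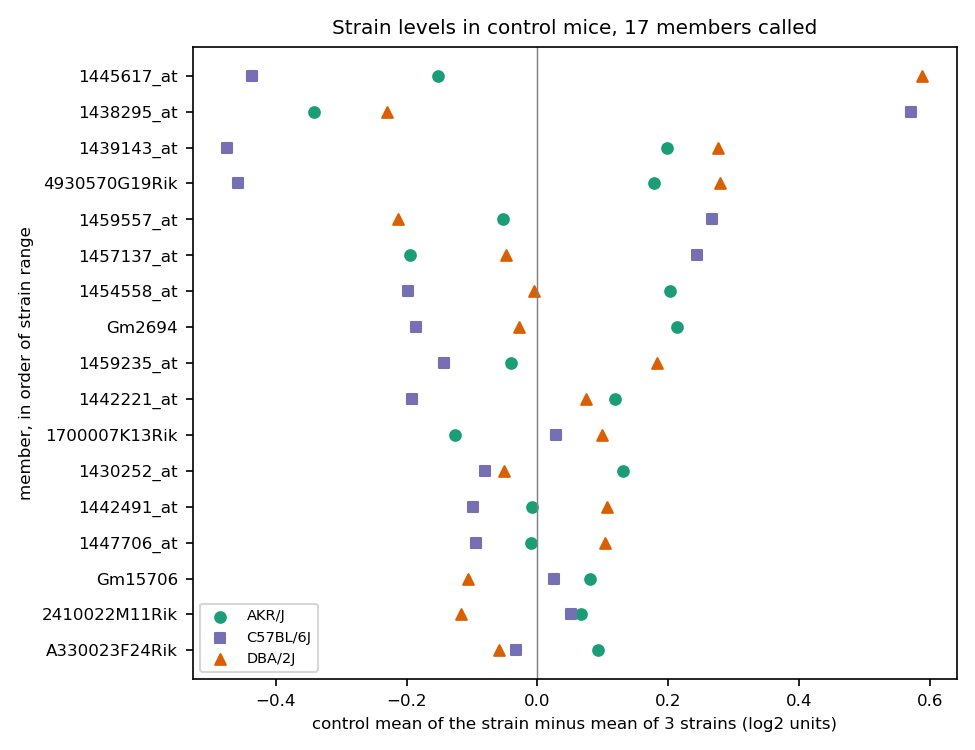
Control mean of each strain minus the mean of the 3 strains (log2 units) for the 17 members with a called strain difference, ordered by range. C57BL/6J stands apart below in 1439143_at and 4930570G19Rik and above in 1438295_at, and DBA/2J above in 1445617_at.

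For each member placed in RefSeq, overlapping genes and the nearest gene on either side with a probe set were read. Unmeasured genes in between were passed over, so that a gene beside a member need not adjoin it. Starts lay 234003 bases apart for Lingo2 and Gm12371, and 96901 for Gm4988 and C030023E24Rik. From A330023F24Rik the start of Cd34 was 78578 bases away and that of Cd46 74849. Of several probe sets the one with the highest mean level was used. Of 20 neighbours 2 were higher after sleep loss, 9 lower and 9 not called, while 17.3% of all probe sets were called. Over all 35 probe sets of these neighbours 2 were higher, 14 lower and 19 not called. The 20 were picked for high level and the background was not, so the shares are not compared. Zdhhc4, a palmitoyltransferase beside 0610040B10Rik, was lower after sleep loss, at -0.14 ± 0.02 (SE, adjusted p = 7.1e-09, limma) in 12 of 12 pairs, and lower in the dark, at -0.22. Negr1, which shares promoter bases with 4930570G19Rik, was lower, at -0.07 ± 0.02 (adjusted p = 0.0037), and its dark minus light value of -0.05 did not pass (adjusted p = 0.309), against -0.51 for 4930570G19Rik. Gm2694 was higher by 0.26, whereas Cbln1 beside it, a secreted organiser of cerebellar synapses, was lower, at -0.11 ± 0.02 (adjusted p = 4.0e-06). On either side of A330023F24Rik, Cd34, a marker of vessels and blood stem cells, was lower, at -0.18 ± 0.02 (adjusted p = 3.1e-09), and Cd46 had -0.05 ± 0.03 (adjusted p = 0.226). The neighbours of C030023E24Rik (0.27) were Cdr1os, higher by 0.12 (adjusted p = 0.0013), and Gm4988, lower, at -0.15 (adjusted p = 6.1e-05). Lingo2, a neuronal membrane protein beside Gm12371, had -0.11 (adjusted p = 0.00093) on the probe set used and -0.01 on both others (adjusted p = 0.934 and 0.811). Mrps2, which overlaps 1700007K13Rik, had 0.03 (adjusted p = 0.468). Zmym5, which overlaps 2410022M11Rik, had 0.02 (adjusted p = 0.533) on that probe set and -0.09 (adjusted p = 0.023) on another. Zmym2, on one side of 2410022M11Rik, had 0.05 (adjusted p = 0.035) on the probe set used and -0.22 (adjusted p = 6.3e-07) in 12 of 12 pairs on another, so that the probe sets disagreed. Grid2ip, across from Zdhhc4 beside 0610040B10Rik, had -0.01 (adjusted p = 0.899). Etfrf1 beside Gm15706 was lower, at -0.08 (adjusted p = 0.0018). A further probe set was present for 0610040B10Rik (1445557_at, -0.14, adjusted p = 2.5e-05) and for 2410022M11Rik (1441783_at, -0.21, adjusted p = 2.1e-06), and both were lower as the members were.

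The named gene nearest to each member was sought by correlation of deviations from group means over 71 arrays, among 32754 probe sets, as a description. Of these 31 nearest genes 5 were higher after sleep loss, 2 were lower and 24 did not pass the test (17.3% of all probe sets passed). The best r was between 0.52 and 0.82 with a median of 0.58, and arrays share their hybridisation. Each is the largest of 32754 values, and a search of that size returns a high r even among unrelated probe sets. How high was not computed, so no relation is drawn from these r. For Gm19439 the nearest gene was Fam107a, a stress-induced actin-binding protein (r = 0.72), which was itself higher after sleep loss by 0.28. For 1442025_a_at it was Nfkbia, the inhibitor of NF-kappa-B (r = 0.74; 0.19), for A330023F24Rik the chromatin protein Jade2 (r = 0.70; 0.11), and for Gm2694 the vessel growth factor Vegfa (r = 0.58; 0.23). For 0610040B10Rik it was Sfmbt1, a chromatin protein (r = 0.61; -0.18), and for 1457137_at Pkia, an inhibitor of protein kinase A (r = 0.66; -0.14). The highest r was that of 1435092_at with N4bp2l1 (0.82), whose difference of -0.01 did not pass. The same held for the next highest, 1427198_at with Nacc2 (r = 0.76; 0.01), 1436599_at with Kpnb1 (r = 0.76; -0.03) and C030023E24Rik with Rad21 (r = 0.74; 0.03). Members followed each other loosely across arrays of 1 group: the median r was 0.10 for pairs of higher members, 0.05 for pairs of lower ones and -0.03 for mixed pairs.

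Named genes of sleep loss and of cell types were measured beside the members. The lists were chosen with earlier results of these data known, so their counts are a description and are not read against the background. Of 18 activity-regulated genes 18 were higher after sleep loss (8.31% of all probe sets), with a median of 0.54, and of 18 chaperones 18, with a median of 0.42. Of 17 clock genes 7 were higher and 5 lower (9% of all probe sets), and of 8 cold-inducible and splicing genes 1 was higher and 3 lower. Among markers, 3 of 5 oligodendrocyte genes were lower, with mean levels per array from 10.2 to 10.8 in controls and 10.1 to 10.6 after sleep loss, and of 4 endothelial genes 2 were higher and 1 lower, with a median of 0.08 and mean levels from 7.54 to 8.05 in controls and 7.65 to 8.12 after sleep loss. Of 8 neuronal, 3 oligodendrocyte precursor and 5 microglial genes 1 was higher and 1 lower in each list, of 4 meningeal genes 1 was lower, and of 5 astrocyte, 4 choroid plexus and 2 blood cell genes none was called. The 4 pituitary genes had a median difference of -0.40 after sleep loss, against a median of -0.28 for the 18 lower members, and none was called. Their mean ran from 5.26 to 11.8 between control arrays and from 5.26 to 11.6 between sleep-deprived arrays. The within-group correlation of the members with the pituitary mean was between -0.27 and 0.32, and with the oligodendrocyte mean between -0.45 and 0.46. With the astrocyte mean it was between -0.56 and 0.42, with neurons -0.50 and 0.44, and with oligodendrocyte precursors -0.39 and 0.55. For the remaining cell types it stayed between -0.41 and 0.42. The part of these cells in the members' differences was not tested. Array medians lay between 5.65 and 5.71 and arrays correlated at 0.986 or more, but 6 arrays stood apart on the spike-in controls. All 6 came from AKR/J or C57BL/6J at ZT0 or ZT6, so they were uneven over strain and time. Without them the same criteria gave 30 members, of which 27 were among the 31.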

How the data were processed

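Log2 expression levels per probe set of 71 arrays were used as deposited. The authors made these log2 values with RMA, per the submitters' processing notes; version and settings of that step: not given in the sources used here. Leaving out 64 control probe sets, 45037 were tested. No counts or detection calls underlie the values, and the number of arrays limits precision. The labels' protocols name pools of 3 mice and the design text 9 mice per group, so p-values measure the spread between pools.

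Group means of the 24 groups were estimated from all arrays in R 4.3.3 (limma 3.58.1; files read by version 1.17.8 of the data.table package), with 47 residual degrees of freedom. Two-sided tests were adjusted by Benjamini-Hochberg over all probe sets, and a call is an adjusted p under 0.05. F tests were used for time of day, strain, and both interactions. The fit was tested on simulated data with independent normal noise for each probe set and array, and without spike-in or other shared array effects. Of 100 probe sets changed by 0.25 log2 units, 91 were called for dark minus light and 84 for strain, and of 100 changed by 0.5, 99 and 100. Among unchanged probe sets 6 were called for dark minus light and 7 for strain. These counts hold for such noise only.

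Members, gene lists and tests were chosen with earlier results of these data known. All 31 members are named. Per-array values go to the 6 largest changes in each direction and to A330023F24Rik, which was added after its values were seen. Symbols came from the platform annotation; RefSeq (GRCm38.p6) gave names, neighbours, promoter windows and microRNAs, and the build behind the probes was not given. Same-numbered pairs correlated above 0.1 in 6 of 35 cases, 3 of them in C57BL/6J at ZT0 (0.23 to 0.60), where replicate 3 of both conditions stood apart on the spike-ins; the numbers were taken to pair no other arrays. Alternatives were quantile normalization, median centring, only probe sets above the median, array weights, trend and robust eBayes, the replicate number as a block, the spike-in arrays as a term or left out, controls alone, other thresholds, and each array left out.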

Additional observations from a re-analysis of the deposited data

Results flagged for a closer look

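Groups held 2 or 3 arrays, too few for a search for single arrays that stand apart. The response to sleep loss differed between strains for 4930570G19Rik, with an adjusted p of 0.0237 (limma F test), and its differences were -0.72 in DBA/2J, -0.46 in AKR/J and -0.21 in C57BL/6J. Averaged over times all 3 strains were lower after sleep loss, although C57BL/6J at ZT18 was higher, by 0.15. The control level of C57BL/6J was the lowest, at 5.21 against 5.84 in AKR/J and 5.94 in DBA/2J.

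The response differed between times of day in 11 members (limma F test), all of them with the smallest size at ZT18. The adjusted p was 8.32e-11 for 1442570_at, 2.27e-05 for A330023F24Rik, 0.000115 for 4930570G19Rik, 0.000452 for 1453976_at, 0.00122 for 1457137_at, 0.00306 for 1442491_at and 0.00738 for 1430252_at. It was 0.0112 for Gm19439, 0.0204 for 0610040B10Rik, 0.032 for 1442905_at and 0.0421 for 1438295_at. The difference of 1453976_at was -0.60 at ZT6 and 0.01 at ZT18, that of 1430252_at -0.60 and -0.03, and that of 1438295_at -0.35 and -0.03. Gm19439 differed from these in that 0.44 was measured at ZT18. Both tests use the differences that chose the members.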

How the results depend on the processing

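All 31 members kept the direction and the call of their mean difference after sleep loss under each setting that kept them, which repeats the contrast that chose them. Membership itself moved: the criteria gave 29 members after quantile normalization and 30 after median centring (29 and 30 of them among the 31), 30 without the 6 spike-in arrays (27 among the 31), and 29 to 36 with 1 array left out (27 to 31 among the 31). Among dark minus light values, 1457692_at lost its call with controls alone in the fit (adjusted p = 0.0757) and in 16 of the 71 fits that left out 1 array, and 1442025_a_at, at -0.01, changed sign in 9 of them (range over the 71, -0.029 to 0.017). With the threshold at 0.2 there were 92 members, 29 higher and 63 lower, at 0.3 there were 12, 6 in each direction, and with 12 equal signs 17, of which 8 lower.

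Only 18 members, 9 of them lower, are above the median level. Among these 18, 18 were called for the mean difference, time of day, ZT6, ZT12 and C57BL/6J. In DBA/2J 17 were called, in AKR/J 16 and for dark minus light 16 (9 lower). For strain 9 were called, at ZT18 1 and for strain by sleep deprivation 0. That 0 is not a lost call, because 4930570G19Rik (mean level 5.44) lies below the median of 5.68 and was left out. Of the other largest changes 1442570_at (5.43), 0610040B10Rik (5.37) and 1457137_at (5.52) were left out too, while Gm19439 (7.35) was kept. Over all probe sets kept, 1206 were called at ZT0 and 57 at ZT18.

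Array weights raised the calls: strain by sleep deprivation 60 probe sets and 2 members (1442025_a_at joined), ZT by sleep deprivation 1834, time of day in sleep-deprived mice 2533 and 6 members, C57BL/6J 4998, ZT0 1401, ZT6 7558, and ZT18 88 and 1 member. Quantile normalization gave 16 probe sets for strain by sleep deprivation. A replicate block within C57BL/6J at ZT0 alone, chosen after seeing the data, gave 16 probe sets for strain by sleep deprivation and moved no other count by over 1.5 times. The replicate block over all groups gave 1 member at ZT18 and otherwise moved no count by over 1.5 times. The spike-in term gave 67 probe sets and 1 member at ZT18, and leaving those 6 arrays out gave 1889 in C57BL/6J.

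Leaving out 1 array, strain by sleep deprivation had 6 to 25 probe sets and 0 to 2 members, with the 25 without C57BL/6J control replicate 3 at ZT0; ZT0 had 475 to 1292, and ZT18 9 to 48, with 0 to 1 member. The 2 members, with 1457137_at, came without AKR/J control replicate 2 or C57BL/6J sleep-deprived replicate 2 at ZT6. The 0 came without DBA/2J control replicate 1 or sleep-deprived replicate 3 at ZT0, and the member at ZT18 without C57BL/6J control replicate 2 at ZT18 or DBA/2J control replicate 3 at ZT0. At ZT0 the extremes came without DBA/2J control replicate 1 and C57BL/6J sleep-deprived replicate 3, and at ZT18 the 9 without AKR/J sleep-deprived replicate 1, which leaves 1 array in that group, assumed to vary like the others.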
